A study of Mus musculus with 6 samples.

Results

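Prostaglandins are short-lived lipid signals. Phospholipases free arachidonate from membranes, the cyclooxygenases encoded by Ptgs1 and Ptgs2 convert it to prostaglandin H2, and terminal synthases turn that into prostaglandin E2, prostacyclin and other prostanoids. The 15-hydroxyprostaglandin dehydrogenase encoded by Hpgd oxidises prostaglandin E2 and prostaglandin F2α to inactive products, and G protein-coupled receptors on the cell surface read the signal. In bone marrow, prostaglandin E2 made by stromal and osteoblast lineage cells acts on bone formation, bone resorption and blood stem cells.

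Expression of 10 genes of this pathway is described here. These genes and the gene lists below were chosen by name, with earlier results of these data known. Their shares, set beside those of all tested genes, are therefore a description only. The 10 are the synthesis genes Ptgs1, Ptgs2, Ptges, Ptges2, Ptges3 and Ptgis (6), the breakdown gene Hpgd (1) and the receptor genes Ptger2, Ptger4 and Ptgfr (3). All 10 were listed among the 15063 genes of the tables. RNA-seq had been carried out on mesenchymal stem cells (MSCs), the stromal progenitors of bone, cartilage and fat cells, grown from bone marrow of mice aged 3 weeks. There were 3 libraries with a conditional knockout of Mapk7 (CKO), all from passage 5 cultures, and 3 wild-type (WT) libraries, of which libraries 1 and 3 were at passage 5 and library 2 at passage 7. The design addressed how Mapk7, which encodes the MAP kinase ERK5, acts on the choice between bone and fat cells. The promoter that drove the deletion is not given in the sources used here.

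Some features of the libraries bear on every value below. Reads worked back from the deposited values totalled 17351907 to 20689481 per library. Mapk7 was at 5.59, 3.84 and 5.45 RPKM (reads scaled to gene length and library size) in CKO libraries 1 to 3, against 7.12, 6.76 and 9.07 RPKM in WT libraries 1 to 3. Klf2 and Klf4, which ERK5 is known to induce, averaged 2.37 ± 0.942 and 4.72 ± 2.41 RPKM in CKO, against 48.3 ± 21.5 and 12.6 ± 0.997 RPKM in WT (SD, n = 3 each). WT library 2 stood apart, with a Pearson correlation across genes of 0.795 to 0.920 with the other libraries, which correlated at 0.891 to 0.972 among themselves. The highest value, 0.972, was that of WT library 1 with CKO library 1. WT library 1 correlated at 0.870 with WT library 2 and at 0.959 with WT library 3. WT libraries 1 and 2 carry 1 animal label, yet the Y-linked gene Ddx3y was at 0.0357 RPKM in WT library 1 and at 19.1 RPKM in WT library 2, so that label is in doubt. Uty, Kdm5d and Eif2s3y, also Y-linked, were likewise near 0 in WT library 1 alone. WT library 3 has different animal numbers in its description and in its file header. Of 12 stromal markers, 11 reached 1 RPKM in every library, and their summed level was 3299 to 7278 RPKM in CKO and 5888 to 7031 RPKM in WT. Macrophage transcripts were present in all cultures: the 19 listed of 21 monocyte and macrophage markers summed to 461 to 3757 RPKM in CKO and 888 to 2489 RPKM in WT, with the top values in CKO library 3 and WT library 3. Most of the sum in CKO library 3 was Lyz2 (2948 RPKM), and the mean log2(RPKM + 1) of these markers was 5.18 there and 5.38 in WT library 3, the highest. Of the 19, 6 lay above and 13 below 0 in CKO minus WT, and 1 above and 18 below without WT library 2. Markers of endothelial cells summed to 0.519 to 3.21 RPKM in CKO and 2.36 to 5.74 RPKM in WT, with Pecam1 at or below 0.301 RPKM everywhere. Most of the WT sums was Erg, named after its values were seen, which was at 0.478, 0.113 and 0.0772 RPKM in CKO and at 2.86, 5.42 and 1.501 RPKM in WT and entered the test through WT alone. Of the osteoclast markers, Ctsk, named after its values were seen, was lower in all CKO libraries, at 41.9 to 57.2 RPKM in CKO and 61.5 to 94.1 RPKM in WT. The other listed osteoclast markers overlapped between genotypes. Acp5 (10.4 RPKM), Mmp9 (21.1 RPKM) and Atp6v0d2 (4.22 RPKM) were highest in CKO library 3, and Oscar, Ocstamp and Dcstamp stayed below 1 RPKM everywhere. Pf4, which leads the megakaryocyte markers, was at 18.1, 12.8 and 210 RPKM in CKO and at 44.2, 0.082 and 12.7 RPKM in WT. Of the others listed, Gp1bb was lower in all CKO libraries, at 0.633 to 0.892 RPKM in CKO and 1.34 to 1.55 RPKM in WT. Ppbp and Itga2b overlapped. Of the 11 stromal markers tested, 4 were lower in all CKO than in all WT libraries, against 9.18% of all tested genes. Their median difference was −0.91, and 5 had an unadjusted p under 0.05, against 9.74% of all tested genes, with none past the adjusted threshold. The part of these markers in the results below was not tested.

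In CKO cultures Ptgs2 stood higher and Hpgd lower than in any WT culture, while most of the other prostaglandin genes overlapped between genotypes. On average Ptgs2 was 4.98-fold higher in CKO and Hpgd 134-fold lower. Ptges3 likewise lay higher throughout CKO, by 1.48-fold on average. None of the 9 genes that could be tested passed an adjusted p of 0.05 in limma, the moderated test fitted over all 11085 tested genes, of which 1 passed (0.00902%). At an unadjusted p under 0.05 there were 2 of the 9, Ptgs2 and Hpgd, where 9.74% of all tested genes reached that level. The values of CKO and WT did not overlap for 3 of the 9, 2 with CKO above and 1, Hpgd, with CKO below. Hpgd entered the test through WT alone, the group where it is higher, so its place in both counts is no support. Over all tested genes the CKO values lay wholly above the WT values in 7.51% and wholly below them in 9.18%, which makes 16.7% in both directions. The median log2 difference was −0.21 over the 9 genes and 0.03 over all tested genes. For a gene on its own, exact permutation over 3 CKO and 3 WT libraries can reach no p smaller than 0.1.

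**Figure D1:**
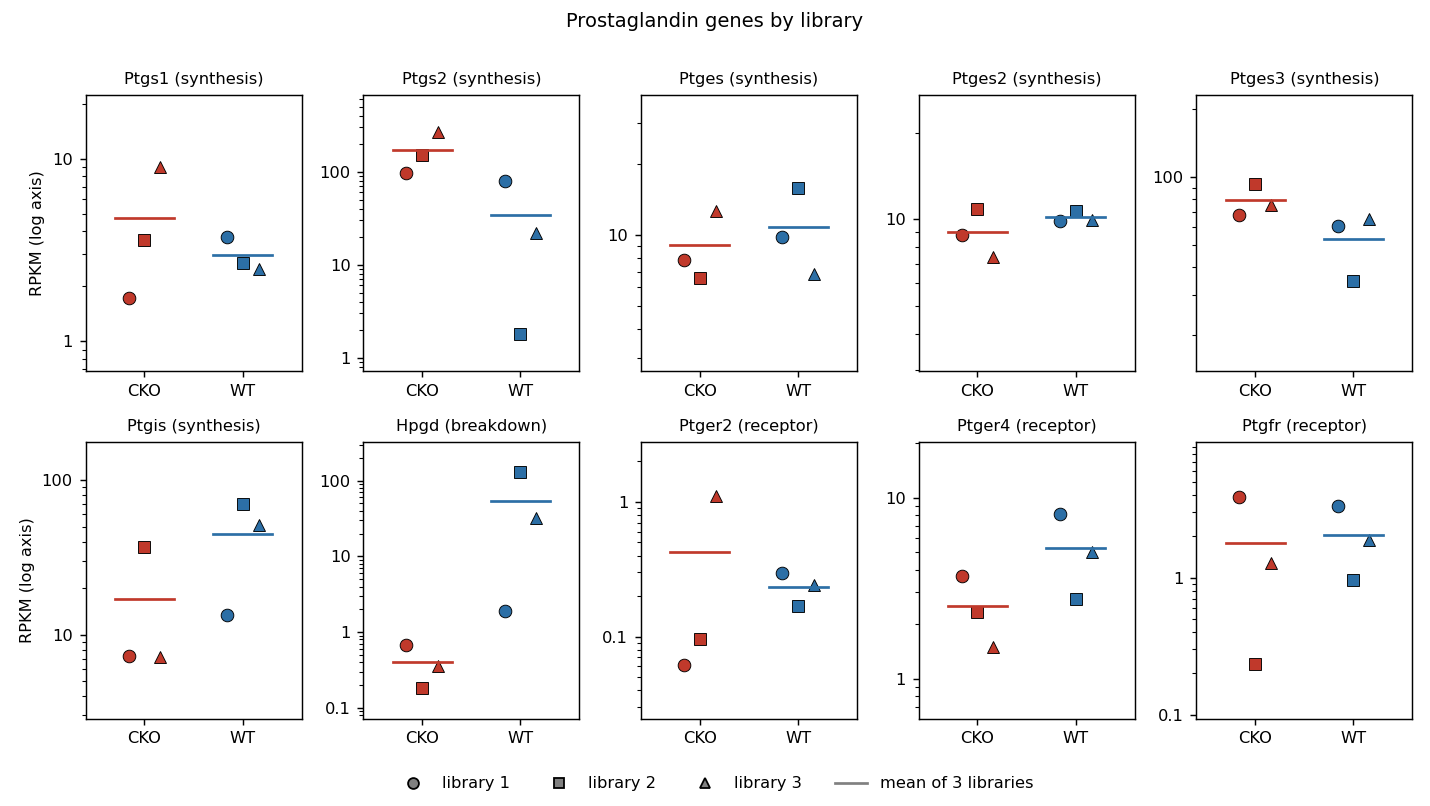
RPKM of each of the 10 prostaglandin genes (log axis) in the 3 CKO and 3 WT libraries, where symbols give the library number and bars the mean of 3 libraries. CKO points lie above all WT points for Ptgs2 and Ptges3 and below them for Hpgd, and the other 7 genes overlap.

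Of the cyclooxygenase genes, Ptgs2, the form induced by cytokines, growth factors and mechanical strain, had the larger difference. Ptgs2 was at 95.5, 152 and 269 RPKM in CKO libraries 1 to 3, against 80.2, 1.80 and 21.7 RPKM in WT libraries 1 to 3. In these bulk samples, fewer cells that express a gene and less RNA per cell cannot be told apart. The groups did not overlap, but WT library 1 came close to CKO library 1, and by fold the WT libraries spread further among themselves than the CKO libraries. Means were 172 ± 88.4 RPKM in CKO and 34.6 ± 40.7 RPKM in WT (SD, n = 3 each). On the log2(RPKM + 1) scale, on which all differences here are given and which understates the change of low genes, the difference of CKO minus WT was 3.20 (SE 1.13, 95% interval 0.51 to 5.88, limma adjusted p = 0.425). Only 3 of the tested genes had a larger positive difference. Much of its size came from the passage 7 library: without WT library 2 the difference was 1.88 (SE 0.65, adjusted p = 0.707), and the ratio of the CKO mean to the mean of the WT passage 5 libraries was 3.38.

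Ptgs1, the constitutive cyclooxygenase, was expressed at a low level and did not separate the genotypes. It was at 1.71, 3.57 and 8.97 RPKM in CKO and at 3.73, 2.67 and 2.48 RPKM in WT. The 3 WT values lay inside the CKO range, and the highest value belonged to CKO library 3, the library with the highest macrophage marker sum, while WT library 3, highest by the markers' mean log2 level, had the lowest WT value. Macrophages are known to express Ptgs1, and their part in this value was not tested. The difference was 0.34 (SE 0.46, 95% interval −0.72 to 1.41, limma adjusted p = 0.815) and turned to −0.16 without CKO library 3. Ptgs2 made up 98.2, 97.7 and 96.8% of the summed Ptgs1 and Ptgs2 level in CKO, against 95.6, 40.2 and 89.8% in WT. In every library but WT library 2, the inducible form was the main cyclooxygenase transcript per length of gene.

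The genes of prostaglandin E synthases showed no shared direction. Ptges, the inducible microsomal synthase that works with the Ptgs2 enzyme, was at 7.85, 6.59 and 12.7 RPKM in CKO and at 9.78, 15.9 and 6.83 RPKM in WT. The groups overlapped throughout, with a difference of −0.21 (SE 0.35, 95% interval −1.03 to 0.61, limma adjusted p = 0.857) that turned to 0.08 without WT library 2. Set against Ptges in the same library, Ptgs2 was 12.2, 23.1 and 21.2 times as high in CKO and 8.20, 0.113 and 3.19 times as high in WT. The ratio was higher in each CKO library than in WT libraries 1 to 3, and the difference between the effects on both genes was not tested.

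Ptges2, the constitutive membrane-associated synthase, had the narrowest range of the 10 genes by fold. Its values were 8.85, 10.9 and 7.42 RPKM in CKO and 9.86, 10.7 and 9.92 RPKM in WT, a difference of −0.17 (SE 0.21, 95% interval −0.65 to 0.32, limma adjusted p = 0.802). Ptges3 encodes the cytosolic synthase also known as p23, a co-chaperone of Hsp90, and is expressed in most cells. It was at 68.0, 93.1 and 75.6 RPKM in CKO and at 60.6, 34.5 and 65.0 RPKM in WT. CKO library 1 and WT library 3 were only a few RPKM apart, so the separation was narrow. The difference was 0.60 (SE 0.30, 95% interval −0.12 to 1.31, limma adjusted p = 0.583) and 0.31 without WT library 2, which had the lowest value.

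Ptgis encodes prostacyclin synthase, which competes with the prostaglandin E synthases for prostaglandin H2. It was at 7.24, 36.8 and 7.16 RPKM in CKO, against 13.3, 70.5 and 50.9 RPKM in WT. CKO libraries 1 and 3 were below every WT library, while CKO library 2 lay between WT libraries 1 and 3. Means were 17.1 ± 17.1 RPKM in CKO and 44.9 ± 29.1 RPKM in WT, a difference of −1.46 (SE 0.79, 95% interval −3.33 to 0.41, limma adjusted p = 0.592). Leaving out CKO library 2 gave −2.20 (adjusted p = 0.545), and leaving out WT library 1 gave −2.16 (adjusted p = 0.293). With 1 library left out, the difference nearest to 0 was −0.997. The ratio of Ptgs2 to Ptgis was 13.2, 4.13 and 37.6 in CKO and 6.02, 0.0255 and 0.427 in WT.

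Hpgd, the breakdown gene, had the widest range of the 10 genes by fold. It was at 0.676, 0.180 and 0.360 RPKM in CKO, against 1.91, 129 and 32.2 RPKM in WT. All CKO libraries were below all WT libraries, and within WT the values of libraries 1 and 2 were 67.7-fold apart. Behind these levels were 22, 6 and 11 reads in CKO and 57, 4599 and 961 reads in WT, and 3 reads of this gene are worth 0.0844 to 0.101 RPKM, depending on the library. CKO levels were therefore measurable but rested on few reads, and these limits cover counting error only. Means were 0.406 ± 0.251 RPKM in CKO and 54.5 ± 66.6 RPKM in WT. The difference was −4.06 (SE 1.23, 95% interval −6.98 to −1.15, limma adjusted p = 0.350). Hpgd reached 1 RPKM in 3 WT libraries and in 0 CKO libraries, so it entered the test through WT alone.

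How large the Hpgd difference was depended on which WT libraries were used. Without WT library 1 it was −5.56 (SE 0.57) and passed the threshold (limma adjusted p = 0.0210). With WT libraries 1 and 2 merged as 1 animal, a label in doubt, it was −5.08 (limma adjusted p = 0.00820). These settings leave out the lowest WT value, that of WT library 1, or average it with the highest, so they are no separate support. With voom on recovered reads, on its own log2 scale, the difference was −5.77 (SE 3.57, adjusted p = 0.612). Without the passage 7 library it was −2.82 (SE 0.95, adjusted p = 0.687), and the mean of the WT passage 5 libraries was 42.1-fold above the CKO mean. The direction was the same in each of these fits. Since the CKO and WT values of Hpgd did not overlap, leaving out or averaging libraries could not have changed it.

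Read together, Ptgs2 and Hpgd ranked the libraries in nearly opposite order. Ptgs2 was highest in CKO library 3, then CKO library 2, CKO library 1, WT library 1, WT library 3 and WT library 2. Hpgd was highest in WT library 2, then WT library 3, WT library 1, CKO library 1, CKO library 3 and CKO library 2. The ratio of Ptgs2 to Hpgd was 141, 844 and 746 in CKO, against 42.0, 0.0139 and 0.675 in WT. WT library 1 had the WT ratio nearest to CKO, and WT libraries 2 and 3 held more Hpgd than Ptgs2. Since the ratio is formed from genes already described, it adds no separate evidence.

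**Figure D2:**
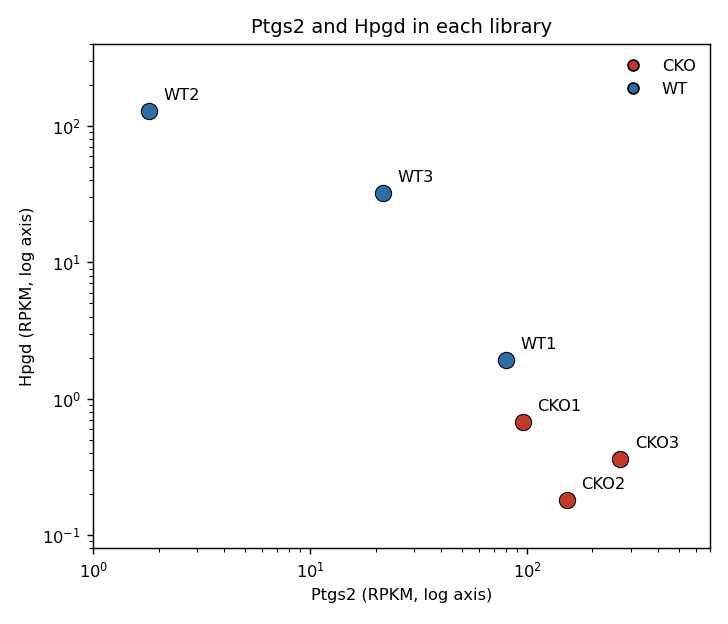
Ptgs2 against Hpgd in RPKM (both axes log), 1 point per library, CKO in red and WT in blue. The CKO libraries sit at the lower right with 95.5 to 269 RPKM of Ptgs2 and 0.180 to 0.676 RPKM of Hpgd, WT library 1 lies next to them, and WT library 2 is at the upper left.

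The promoter windows of these genes, the pair with the widest separation of genotypes among the 10, are shown to set the motifs of one beside those of the other. Sequences are from RefSeq (GRCm38.p6, not the mm9 build of the expression tables), and run from 250 bases before to 50 bases after the annotated start, which is position +1. The Ptgs2 window lies at chr1:150099781-150100080 and the Hpgd window at chr8:56294302-56294601, both on the plus strand. Capitals mark a TATA box (TATAAA), the core of a cAMP response element (TGACG), an E-box (CACGTG), a C/EBP motif (TTNNGNAA) or a CACCC box (CACCC), searched on both strands:
Ptgs2: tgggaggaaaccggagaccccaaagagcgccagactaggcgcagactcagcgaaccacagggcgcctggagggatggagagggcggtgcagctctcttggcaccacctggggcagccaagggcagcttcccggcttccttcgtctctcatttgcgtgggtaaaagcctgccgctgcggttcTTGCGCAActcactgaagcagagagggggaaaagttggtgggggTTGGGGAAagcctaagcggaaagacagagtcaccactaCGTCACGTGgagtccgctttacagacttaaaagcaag
Hpgd: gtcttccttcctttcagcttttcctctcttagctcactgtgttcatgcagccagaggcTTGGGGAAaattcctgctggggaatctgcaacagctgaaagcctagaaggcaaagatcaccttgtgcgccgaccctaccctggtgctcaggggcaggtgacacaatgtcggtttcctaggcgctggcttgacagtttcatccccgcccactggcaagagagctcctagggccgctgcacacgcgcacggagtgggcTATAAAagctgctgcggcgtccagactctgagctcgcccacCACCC

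The Ptgs2 window held the palindromic C/EBP motif at position −69 and a second one at −25. It also held the cAMP response element core at 14, on the minus strand, which overlaps the E-box at 17. The Hpgd window held the TATA box at 5, a C/EBP motif at −192 and a CACCC box at 46, the class of motif that KLF factors bind. Over all 32851 windows of that length, 13.6% held the TATA box, 20.8% the cAMP response element core, 7.15% the E-box, 40.7% the C/EBP motif and 57.5% the CACCC box, so most of these are common. A loose NF-κB pattern, present in 50.8% of all windows, was found in the Ptgs2 window at −23, overlapping the second C/EBP motif, and not in that of Hpgd. An AP-1 motif (TGANTCA, 7.81% of windows) was found in neither. Windows were at hand for 9 of the 10 genes, all but Ptgis. The cAMP response element core occurred in 2 of the 9, those of Ptgs2 and Ptges3, and the CACCC box in 7 of the 9, with Ptgs2 and Ptger2 the exceptions. These matches describe letters in a fixed window and say nothing of binding. Positions count from the annotated start, and the start used in these cells was not measured.

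The receptor genes were expressed at low levels, and none of the 2 tested passed. Ptger4 encodes the EP4 receptor, which raises cAMP and is known to mediate anabolic effects of prostaglandin E2 on bone. It was at 3.68, 2.33 and 1.51 RPKM in CKO, against 8.11, 2.76 and 5.01 RPKM in WT. CKO libraries 2 and 3 were below every WT library, and CKO library 1 lay between WT libraries 2 and 3. Means were 2.51 ± 1.10 RPKM in CKO and 5.29 ± 2.68 RPKM in WT, a difference of −0.80 (SE 0.38, 95% interval −1.70 to 0.10, limma adjusted p = 0.558). It was −0.49 without WT library 1, which had the highest value.

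Ptger2, the gene of the other receptor that raises cAMP, stayed below the filter of 1 RPKM in at least 3 libraries and was not tested. It was at 0.0615, 0.0963 and 1.11 RPKM in CKO, against 0.295, 0.169 and 0.242 RPKM in WT, from 5, 8 and 85 reads in CKO and 22, 15 and 18 reads in WT. CKO libraries 1 and 2 were below all WT libraries and CKO library 3 was above them. That library also had the highest macrophage sum, though not the highest mean log2 level of these markers, and the part of macrophages in it was not tested. Ptgfr encodes the receptor of prostaglandin F2α. It was at 3.90, 0.234 and 1.28 RPKM in CKO and at 3.32, 0.964 and 1.87 RPKM in WT, with a difference of −0.27 (SE 0.53, 95% interval −1.52 to 0.97, limma adjusted p = 0.877) whose sign changed without CKO library 2 (0.21) or WT library 1 (0.01).

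**Figure D3:**
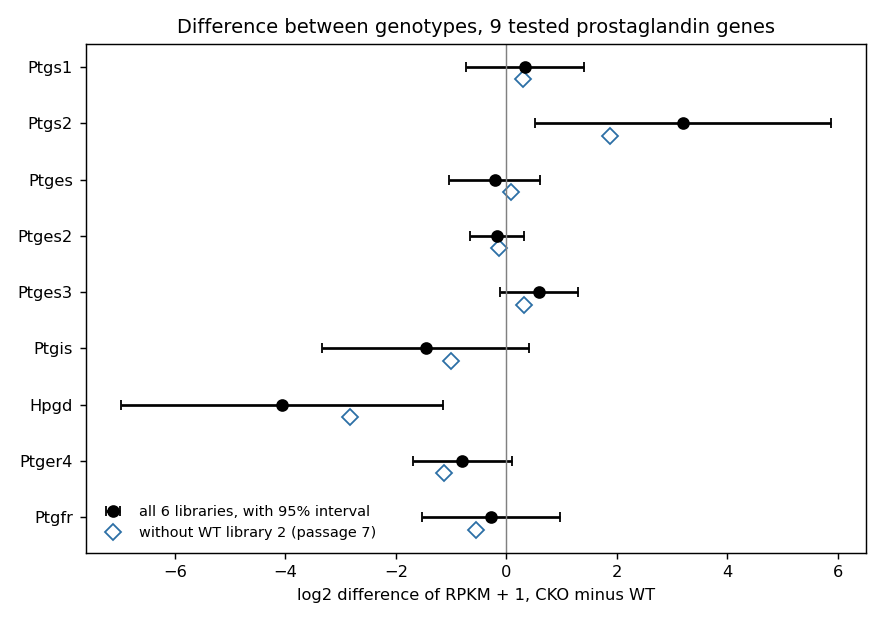
Log2 difference of RPKM + 1, CKO minus WT, for the 9 tested prostaglandin genes. Black points with bars give the estimate and 95% interval from all 6 libraries and open diamonds the estimate without WT library 2. The intervals of Ptgs2 (0.51 to 5.88) and Hpgd (−6.98 to −1.15) leave out 0 before adjustment over all genes, and both estimates are nearer to 0 without WT library 2.

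RPKM is scaled to gene length, so levels can be ordered across genes. By mean, the CKO order was Ptgs2, Ptges3, Ptgis, Ptges, Ptges2, Ptgs1, Ptger4, Ptgfr, Ptger2 and Hpgd. In WT it was Hpgd, Ptges3, Ptgis, Ptgs2, Ptges, Ptges2, Ptger4, Ptgs1, Ptgfr and Ptger2. Ptgs2 ranked first of the 10 in each CKO library and in WT library 1, but rank 4 in WT library 3 and rank 8 in WT library 2. Hpgd ranked first in WT library 2, at rank 3 in WT library 3, and at rank 9 or 10 in the other libraries. Neighbours among the 4 leading genes in WT differed in mean by less than their SDs, which were 66.6 RPKM for Hpgd, 16.5 RPKM for Ptges3, 29.1 RPKM for Ptgis and 40.7 RPKM for Ptgs2. Ptges and Ptges2 could not be ordered in either genotype, at 9.05 ± 3.23 and 9.04 ± 1.73 RPKM in CKO and at 10.8 ± 4.62 and 10.2 ± 0.481 RPKM in WT. The same held at the low end in CKO, where Ptger2 averaged 0.424 ± 0.598 RPKM and Hpgd 0.406 ± 0.251 RPKM.

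WT libraries 1 and 2 differ in passage, with no replicate and with the doubt on their shared animal label given above. They also differ in Y-linked transcripts, so passage cannot be told apart from a difference between animals. Ptgs2 was 44.6-fold lower at passage 7 than at passage 5 in this pair, Hpgd was 67.7-fold higher and Ptgis 5.30-fold higher. Ptger4 and Ptgfr were 2.94-fold and 3.44-fold lower. WT library 3, at passage 5 like WT library 1, differed from it in the same directions: Ptgs2 was 3.69-fold lower, Hpgd 16.9-fold higher and Ptgis 3.82-fold higher. These libraries also differ in Y-linked transcripts, with Ddx3y at 11.8 RPKM in WT library 3 and at 0.0357 RPKM in WT library 1. For Ptgs2, the distances of WT library 1 from WT libraries 2 and 3 both exceeded the 3.38-fold ratio between the genotypes at passage 5. For Hpgd, the 67.7-fold distance from WT library 2 exceeded the 42.1-fold ratio between the genotypes at passage 5. The 16.9-fold distance of Hpgd from WT library 3 did not.

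Genes around the pathway were taken from 7 lists of 75 gene symbols, older synonyms included, of which 65 were listed and 45 tested. None passed an adjusted p of 0.05 in limma, 7 of the 45 had an unadjusted p under 0.05, against 9.74% of all tested genes, and 23 lay above and 22 below 0. The values of CKO and WT did not overlap for 9 of the 45, with CKO above in 5 and below in 4, against the 16.7% of all tested genes given above.

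Of the 7 tested genes of arachidonate release, 3 separated the groups, all with CKO above, against 7.51% of all tested genes with CKO wholly above WT. Pla2g4a, the cytosolic phospholipase A2 that supplies arachidonate to the cyclooxygenases, was at 35.5, 64.9 and 72.8 RPKM in CKO, against 28.5, 10.7 and 19.7 RPKM in WT. Its order of libraries was that of Ptgs2 in all 6, and its difference was 1.55 (SE 0.41, limma adjusted p = 0.303). Pla2g6, a calcium-independent phospholipase A2 gene, averaged 4.75 ± 0.531 RPKM in CKO and 3.30 ± 0.132 RPKM in WT. Plaa, the phospholipase A2-activating protein gene, averaged 15.4 ± 1.12 RPKM in CKO and 10.3 ± 3.66 RPKM in WT (adjusted p = 0.556 and 0.558). WT library 2 had the lowest value of Pla2g4a and of Plaa (6.16 RPKM), and WT library 1 that of Pla2g6 (3.16 RPKM). The median difference of the 7 tested genes was 0.46, and 0.42 without WT library 2. A pair of genes of this list that stayed below the filter lay the other way, and were named after their values were seen. Faah, the fatty acid amide hydrolase gene, was at 0.331, 0.419 and 0.103 RPKM in CKO, against 0.994, 13.4 and 9.61 RPKM in WT. Pla2g5, a secreted phospholipase A2 gene, was at 0.0394, 0.0193 and 0.126 RPKM in CKO, from 2, 1 and 6 reads, against 0.151, 8.34 and 0.904 RPKM in WT.

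**Figure D4:**
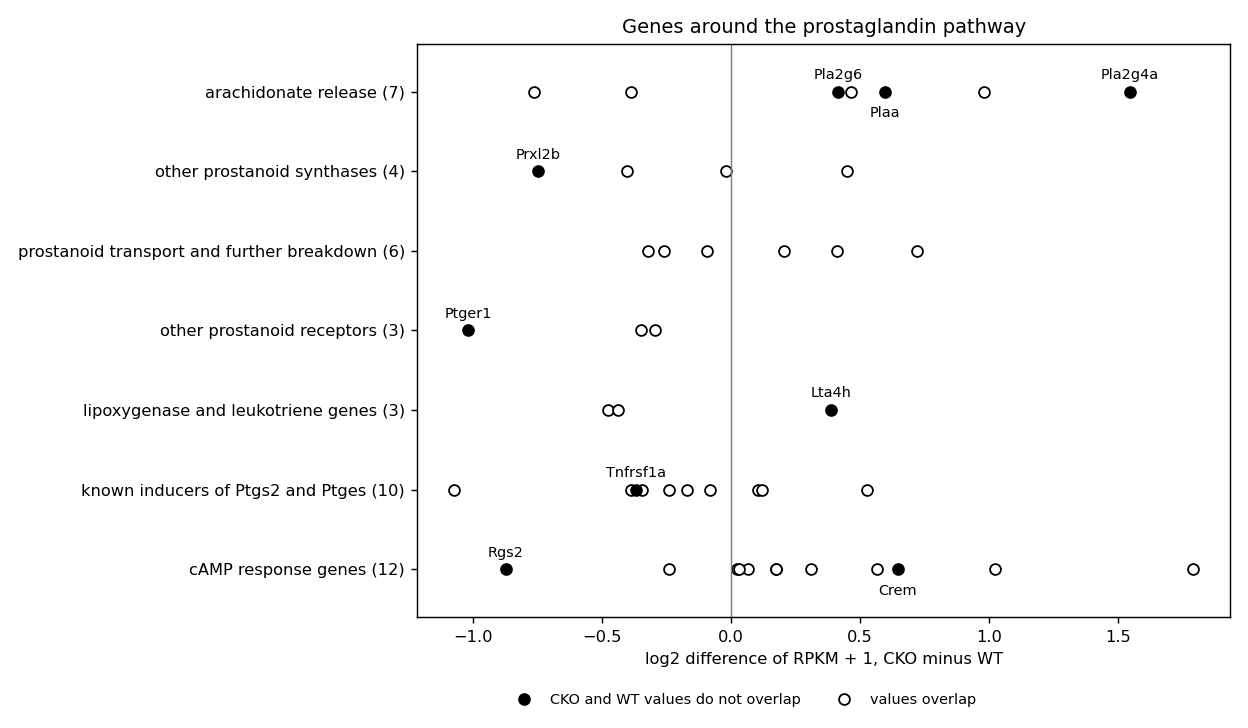
Log2 difference of RPKM + 1, CKO minus WT, of the 45 tested genes in 7 lists around the prostaglandin pathway, with the number tested per list in parentheses. Filled points mark the 9 genes whose CKO and WT values do not overlap: Pla2g4a, Pla2g6, Plaa, Lta4h and Crem with CKO above, and Prxl2b, Ptger1, Tnfrsf1a and Rgs2 with CKO below.

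Among other prostanoid synthases, 1 of 4 tested genes was above 0 and 3 were below, and 2 were above and 2 below without WT library 2. Prxl2b, the prostamide and prostaglandin F synthase gene, averaged 7.77 ± 2.47 RPKM in CKO and 13.5 ± 2.51 RPKM in WT (difference −0.75, limma adjusted p = 0.449), with all CKO values lower. Akr1b8, an aldo-keto reductase gene, averaged 43.3 ± 12.4 RPKM in CKO and 30.9 ± 6.05 RPKM in WT, and Cbr1, a carbonyl reductase gene, 26.4 ± 2.39 RPKM in CKO and 36.2 ± 11.4 RPKM in WT. Of the 6 genes of transport and further breakdown, 3 were above and 3 below 0, and all overlapped. Abcc1, an export pump gene, averaged 38.9 ± 15.05 RPKM in CKO and 23.2 ± 8.89 RPKM in WT. Ptgr1 and Ptgr2, the reductases that act after the Hpgd enzyme, averaged 21.3 ± 5.65 and 10.8 ± 1.62 RPKM in CKO and 15.6 ± 3.25 and 13.1 ± 1.69 RPKM in WT. CKO and WT values of both reductase genes overlapped.

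All 3 tested genes of the other prostanoid receptor list were below 0. Ptger1, the gene of the EP1 receptor, was at 0.269, 0.460 and 0.305 RPKM in CKO, against 2.25, 1.68 and 1.30 RPKM in WT, a difference of −1.02 (SE 0.22, limma adjusted p = 0.269). It entered the test through WT alone, since no CKO library reached 1 RPKM. Ptgfrn, which encodes a protein that binds the prostaglandin F2α receptor, averaged 8.69 ± 0.604 RPKM in CKO and 11.5 ± 2.37 RPKM in WT. Tbxa2r, the thromboxane receptor gene, averaged 0.872 ± 0.192 RPKM in CKO and 1.36 ± 0.682 RPKM in WT. Of the 3 tested leukotriene genes, Lta4h, the leukotriene A4 hydrolase gene, separated the groups at 42.7 ± 6.14 RPKM in CKO and 32.5 ± 5.09 RPKM in WT (adjusted p = 0.607).

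The list of known inducers of Ptgs2 and Ptges had 3 of 10 tested genes above 0 and 7 below, and a median difference of −0.20. Without WT library 2, 1 was above and 9 were below. Cebpd, a transcription factor gene, averaged 30.6 ± 13.2 RPKM in CKO and 66.4 ± 32.1 RPKM in WT (difference −1.07, limma adjusted p = 0.465). Tnfrsf1a, the TNF receptor gene, averaged 73.9 ± 9.06 RPKM in CKO and 95.4 ± 7.11 RPKM in WT. Il1b, the interleukin 1β gene and a strong inducer, was not tested. It was at 0.195, 0.0380 and 1.95 RPKM in CKO and listed at 0 in all 3 WT libraries, and was named after its values were seen. The CKO values rest on 5, 1 and 47 reads, and the second is below the worth of 3 reads (0.114 RPKM). The highest is in CKO library 3, which has the highest macrophage marker sum. WT library 3, highest by the mean log2 level of these markers (5.38 against 5.18 in CKO library 3), was among those at 0. The part of macrophages in the Il1b values was not tested.

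The cAMP response list, whose genes rise when EP2 or EP4 receptors are stimulated in many cell types, held 10 of 12 tested genes above 0, against 53.7% of all tested genes, with a median difference of 0.17. That tally rested on WT library 2: without it 6 were above and 6 below 0, against 46.5% of all tested genes above. Crem, the cAMP response element modulator gene, was at 1.81, 2.19 and 2.26 RPKM in CKO, against 1.06, 1.19 and 0.687 RPKM in WT (difference 0.65, SE 0.22, limma adjusted p = 0.393). Rgs2, a regulator of G protein signalling, was lower in all CKO libraries, at 2.68, 1.82 and 3.86 RPKM in CKO and 6.05, 4.93 and 6.38 RPKM in WT (difference −0.87, adjusted p = 0.341). Il11, a cytokine gene, averaged 6.58 ± 4.04 RPKM in CKO and 1.06 ± 1.04 RPKM in WT, with CKO library 3 below WT library 1 (difference 1.79, adjusted p = 0.359).

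Across the 6 libraries, the tested genes with a pattern most like Ptgs2 on the log2(RPKM + 1) scale were Mtpn (Pearson r = 0.998), Afg3l2 (0.997) and Rin1 (0.995). For Hpgd they were Mkx, a tendon transcription factor gene (0.998), Klc4 (0.997) and Bbs9 (0.996), and for Ptgis Cby1 (0.998), Fbxl15 (0.997) and Tnfsf12 (0.990). With 6 libraries and all tested genes searched, these correlations are a description only. The levels of these genes had a narrower range than the members they follow: Mtpn spanned 52.2 to 110 RPKM and Mkx 2.32 to 28.3 RPKM.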

How the data were processed

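The authors deposited 1 RPKM value per gene and library, which the file headers name only as expression. The unit was inferred: assuming an integer read total for each library and an integer length for each gene, 15031 of 15063 genes (99.8%) returned whole reads, within 0.01 read or a relative error of 1e-07. The submitters' processing notes name mm9. Sources used here do not give the aligner, counter, annotation, strand use or filters, so overlapping genes may share reads. Groups came from the sample titles.

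Tests ran on log2(RPKM + 1) in limma 3.58.1 (R 4.3.3), for genes reaching RPKM 1 in 3 or more libraries. The model held genotype alone, with intensity trend and robust moderation, was two-sided, and used Benjamini-Hochberg adjustment over all tested genes; this was the design's choice for normalized values. Fit and read recovery were tested on simulated data. Nothing states separate cultures or litters, so p-values reflect only how these libraries vary, which may be technical. Members and lists were chosen with earlier results of these data known. Named genes were Mapk7, Klf2, Klf4, the 10 members, up to 3 tested genes per list with the lowest p, and defining cell type markers. The 3 genes most correlated with each of Ptgs2, Ptgis and Hpgd were also named. Il1b, Faah, Pla2g5, Erg, Y-linked genes and further osteoclast and megakaryocyte markers, Ctsk among them, were added after their values were seen.

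Other settings tried were a median or quantile scaling of libraries, dropping the filter or raising it to RPKM 5, a pseudocount of 0.1, plain limma moderation, each library left out, WT libraries 1 and 2 averaged, replicate number as a block, and voom on recovered reads. Settings with a library left out or averaged used the genes tested with all 6.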

Additional observations from a re-analysis of the deposited data

How the results depend on the processing

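Ptgs2, Ptges3, Ptges2, Ptgis, Hpgd and Ptger4 kept their direction under each alternative that could be run for them. Much of this was fixed in advance. The filter settings, plain moderation and the replicate block leave an estimate as it is. For Ptgs2, Ptges3 and Hpgd, whose groups did not overlap, leaving out or averaging libraries could not reverse the sign. Hpgd passed the threshold without WT replicate 1 (−5.56; −2.82 to −5.56 with 1 library left out) and with WT libraries 1 and 2 merged (−5.08), and these made the count of members past the threshold 1 in place of 0 (0 to 1 with 1 library left out). The sign changed for Ptgs1 (−0.16 to 0.78 with 1 library left out), Ptges (−0.47 to 0.083) and Ptgfr (−0.79 to 0.21). Over all genes, 1 passed in limma. That count was 2 with median centring or quantile normalization, 4 with the filter at RPKM 5, 0 without a filter, with a pseudocount of 0.1, with the replicate block or with voom, 43 with WT libraries merged, and 0 to 44 with 1 library left out. At an unadjusted p under 0.05 these 4 settings with a count of 0 held 1399, 1059, 1123 and 1022 genes. The count was also 0 without CKO library 3, WT library 2 or WT library 3, with 816, 689 and 718 genes at that level. The replicate numbers showed no clear pairing: same-numbered libraries correlated at 0.20, 0.01 and −0.02 in their deviations from group means. CKO library 1 correlated best with its own number, and CKO libraries 2 and 3 with another number. Deviations from a mean of 3 libraries depend on each other, so pairing is not excluded. With that replicate block Ptgs2 was at 3.20 and no member passed. Hpgd, Ptgs1, Ptger4 and Ptgfr were below the filter at RPKM 5, and Ptger2 was tested only without a filter (0.13). Depth limits Hpgd in CKO (6 to 22 reads) and Ptger2.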
